A study of Mus musculus with 12 samples.

Results

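The 39 genes described here encode proteins of the synaptic vesicle and of the machinery that docks, primes, fuses and retrieves it. They were chosen by symbol, by a rule that uses no measured value, and all 39 were found among the 36047 genes of the deposited tables. RNAseq was carried out on polyA RNA from the cerebral cortex of mice, with 3 libraries in each of 4 groups, namely WT aged 4 months, *Gde2*KO aged 4 months, WT aged 19 months and *Gde2*KO aged 19 months. *Gde2*KO mice lack GDE2, the product of *Gdpd5*, a membrane enzyme that cleaves the glycosylphosphatidylinositol anchors of proteins at the cell surface. The loss is present in every cell and from development on, and no other allele or agent is named for any of the 4 groups. The question the comparisons address is whether the RNAs of the release machinery differ with genotype in young or in aged cortex.

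At a nerve terminal, calcium entering through voltage-gated channels is sensed by synaptotagmins on the vesicle, and the SNARE proteins of vesicle and plasma membrane then zip together and fuse the membranes. Complexins and the Munc13 and RIM proteins of the active zone set how many vesicles are ready to fuse, NSF and its SNAP adaptors take the spent SNARE complexes apart, and dynamin and synaptojanin recover the membrane by endocytosis. In cortex most terminals release glutamate, which is loaded into vesicles by the transporters encoded by *Slc17a7* and *Slc17a6*.

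The libraries at 4 months held 46434270 to 59728494 estimated reads. At 19 months the range was 3707928 to 44604721, with 6734475 reads in WT library A and 3707928 in *Gde2*KO library A. *Gdpd5* itself read 684.5, 701.7 and 1199.5 normalized counts in WT against 417.1, 585.2 and 403.0 in *Gde2*KO at 4 months, and 1064.8, 1128.8 and 952.1 against 440.5, 456.2 and 560.1 at 19 months, so that the genotypes did not overlap at either age. Cortical excitatory neuron markers were above 1 TPM in every library for 12 of 12 genes. The 4-month WT libraries 1 and 2 stood apart from the other 10: the summed TPM of 15 hippocampal markers was 697.4 and 585.6 there and 173.0 to 222.8 elsewhere, while that of 15 striatal markers was 378.4 and 272.7 there and 1271.7 to 3274.8 in the other 4 libraries of that age. At 19 months the striatal sum was 318.3 to 424.4 in WT and 399.0 to 878.9 in *Gde2*KO. The Y-linked gene *Ddx3y* was above 500 normalized counts in 0 of 6 libraries at 4 months and in 5 of 6 at 19 months, so age cannot be told apart from sex or from the set of libraries. In bulk tissue, fewer cells of a type and less RNA per cell cannot be told apart either.

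Levels are compared between genes as TPM, which is corrected for transcript length. The deposited TPM do not share a common total. They summed to 1472300 in 4-month *Gde2*KO library 3 and to 887748 to 1103970 in the other libraries. *Snap25*, the plasma membrane SNARE, was the highest of the 39, with a median of 2110.0 TPM over the 12 libraries. Its range was 1698.2 to 3085.1, with the top in *Gde2*KO library 3. *Syp*, the abundant vesicle protein synaptophysin, followed at 1449.7, then *Dnm1*, the neuronal dynamin, at 1081.6 with a range of 709.8 to 1267.5. *Slc17a7*, encoding the vesicular glutamate transporter VGLUT1, stood at 926.7 TPM and *Vamp2*, the main vesicle SNARE, at 850.3. Their ranges of 682.7 to 1299.0 and 746.9 to 916.8 overlapped with each other and with that of *Dnm1*, which also reached into the 1136.8 to 1585.4 of *Syp*, so neighbours in this order were not separated beyond their spread, although *Syp* lay above *Vamp2* throughout. *Sncb* (β-synuclein) at 741.9, *Rab3a* (a vesicle GTPase) at 661.3, *Syt1* (the fast calcium sensor of forebrain terminals) at 649.3 and *Cplx1* (complexin 1) at 634.2 were neighbours with overlapping ranges. At the other end, *Cplx3* stood at 16.1 TPM, *Slc17a6* (VGLUT2, which in cortex is carried mainly by thalamic axons whose RNA lies elsewhere) at 11.2, *Syn3* at 9.0, *Sv2c* at 6.9 and *Unc13c* at 5.1. The last of these, which encodes Munc13-3, ranged from 2.9 to 19.7 TPM.

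Within a group, the members spread far more at 4 than at 19 months. The median ratio of the highest to the lowest of 3 libraries was 1.36 in WT and 1.38 in *Gde2*KO at 4 months, where the median over all genes was 1.27 and 1.41. At 19 months it was 1.11 and 1.10, against 1.20 and 1.23 over all genes. In the 4-month WT group 7 of 39 members varied more than 2-fold, led by *Unc13c* at 6.34-fold, *Cplx3* at 3.80-fold, *Syt2* at 3.53-fold, *Slc17a6* at 3.17-fold and *Sv2c* at 2.97-fold, followed by *Stx1a* and *Syn2*. One member, *Cplx3*, did so in *Gde2*KO at 4 months (2.28-fold), and 0 members did so in either group at 19 months.

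**Figure D1:**
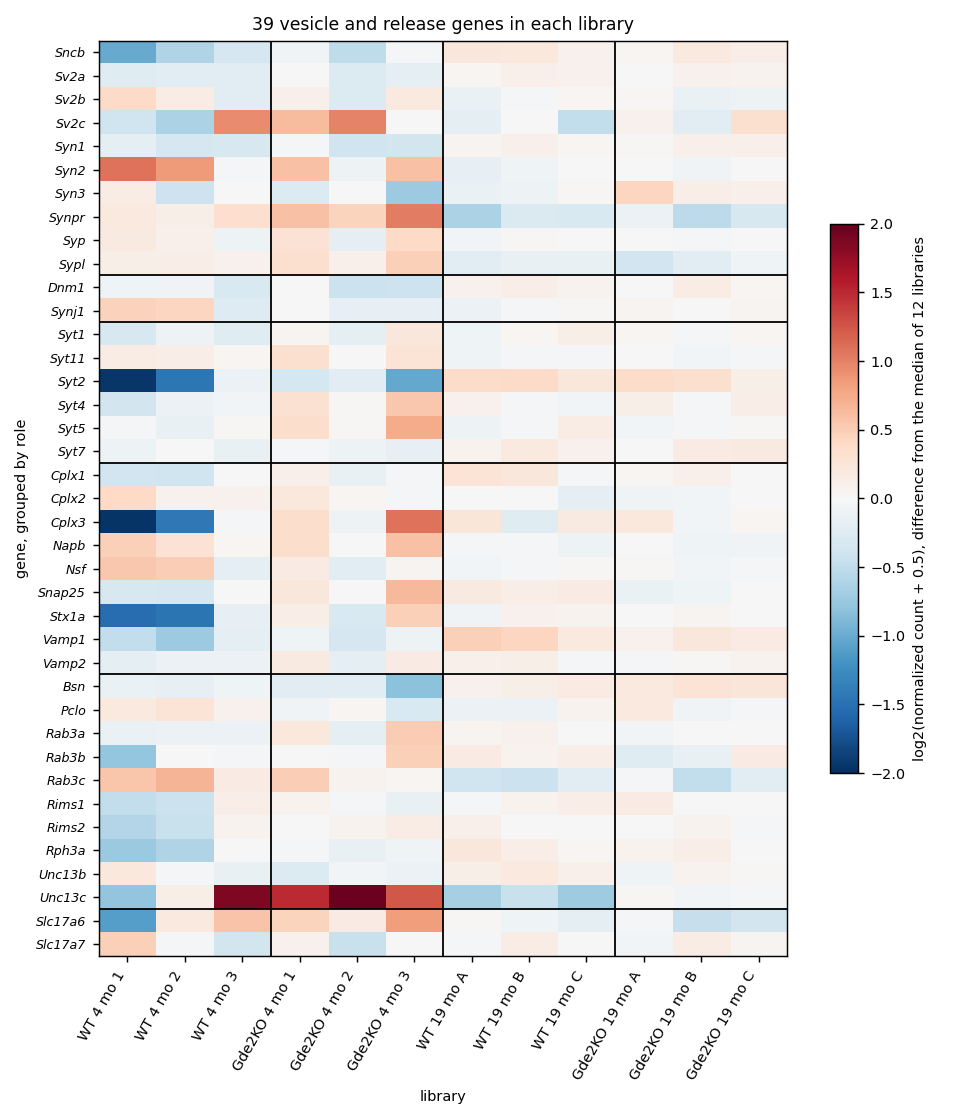
Heat map of the 39 genes (rows, grouped by role) in the 12 libraries (columns), colored by the difference of log2(normalized count + 0.5) from the gene's median over the libraries. The 4-month WT libraries 1 and 2 are low for *Syt2*, *Cplx3* and *Stx1a*, and *Unc13c* is high in the other 4 libraries of 4 months.

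A gene was called where limma's Benjamini-Hochberg adjusted p was under 0.1 and the absolute natural-log fold change was above 0.5, which is 0.721 on the log2 scale. Fold changes are differences of log2(normalized count + 0.5), *Gde2*KO minus WT. A normalized count is an estimated count divided by the size factor of its library. In aged cortex the release machinery was measured closely and 0 of 39 members were called, where 0.0969% of 18583 genes were. The 95% interval of the fold change lay inside ±0.5 for 36 of the 39, and the median over the members was -0.01, as against -0.02 over all genes. *Snap25* and *Unc13c* had the smallest p-values, *Snap25* being lower and *Unc13c* higher in *Gde2*KO in all 3 libraries, but neither passed. At an unadjusted p under 0.05 there were 5 members (12.8%), a share to be read against 6.91% of all genes.

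*Snap25* (chr2:136713453-136782428 on GRCm38, plus strand) read 79359.7, 76859.7 and 78418 normalized counts in 19-month WT and 63652, 65877 and 69583 in *Gde2*KO. The highest *Gde2*KO library lay below the lowest WT library. The log2 fold change was -0.24 (95% interval -0.34 to -0.14), a ratio of 0.848, and the adjusted p was 0.248. Over 18 alternatives, which included leaving out both libraries of low depth, the fold change ranged from -0.27 to -0.18 and the adjusted p from 0.0655 to 0.9999. The summed TPM of 11 pan-neuronal markers overlapped between the genotypes, at 3995.3 to 4427.4 in WT and 4172.5 to 4253.7 in *Gde2*KO.

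*Unc13c* (chr9:73479422-73968966, minus strand) read 522, 610.5 and 505 normalized counts in WT and 846, 801 and 815 in *Gde2*KO at 19 months. The groups did not overlap, and the log2 fold change was 0.59 (0.37 to 0.81) with an adjusted p of 0.142. It was below the minimum fold change as well. Over the alternatives tried the fold change ranged from 0.49 to 0.68 and the adjusted p from 0.0345 to 0.9999. The striatal marker sum was also higher in 2 of the 3 *Gde2*KO libraries than in any WT library, and the summed TPM of the hippocampal markers did not overlap, at 173.0 to 187.6 in WT and 194.3 to 218.1 in *Gde2*KO. The part of either in the result was not tested.

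By role, 7 of the 9 fold changes of the SNAREs and their regulators were negative in aged cortex, with a median of -0.01. Over all 39 members 16 were positive (41.0%, against 44.6% of all genes), or 22 with median-of-ratios scaling. *Vamp1*, a vesicle SNARE of fast-firing neurons, read 9192, 8848 and 7513 in WT against 6986, 7736 and 7401, and the groups overlapped (log2 -0.20, interval -0.38 to -0.02, adjusted p = 0.711). *Stx1a*, the syntaxin that pairs with SNAP-25, was nearly level at 8023, 8895 and 8795 against 8376, 8738 and 8417 (log2 -0.01, interval -0.13 to 0.11). The fold changes of the remaining SNARE-related genes, *Vamp2*, *Cplx1*, *Cplx2*, *Cplx3*, *Nsf* and *Napb*, lay between the -0.24 of *Snap25* and 0.02.

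Among the 6 synaptotagmins, *Syt1*, *Syt2*, *Syt4*, *Syt5*, *Syt7* and *Syt11*, fold changes at 19 months ran from -0.05 to 0.08 and no interval left zero. *Syt4* and *Syt11* encode forms that bind calcium weakly, if at all, whereas *Syt7* encodes the slow, high-affinity sensor. The 10 genes of the vesicle membrane and its associated proteins ran from -0.05 to 0.29. The top of that range was shared by *Sv2c* and by *Syn3*, the least abundant synapsin, which read 345, 353 and 384 in WT and 508, 415 and 405 in *Gde2*KO (log2 0.29, interval 0.02 to 0.56, adjusted p = 0.711). The groups did not overlap for *Syn3*. *Syp* gave 0.01 (-0.08 to 0.10). The glutamate transporters gave 0.00 (-0.15 to 0.15) for *Slc17a7* and -0.21 (-0.49 to 0.08) for *Slc17a6*.

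The active zone genes were divided. *Bsn*, encoding the giant scaffold bassoon, read 21727, 22157 and 23031 in WT and 23394, 24627 and 24056 in *Gde2*KO at 19 months (log2 0.11, interval 0.01 to 0.20, adjusted p = 0.711), but with gene-level TPM the sign turned to -0.05. *Unc13b*, a Munc13 priming factor, read 2679, 2825 and 2639 against 2322, 2589 and 2496, and *Rab3a* read 14689.5, 14997 and 14247 against 13634, 14141 and 14182. For both, every *Gde2*KO library was below every WT library, by log2 fold changes of -0.14 and -0.07 whose intervals included zero. The genotypes of 3 members thus did not overlap with *Gde2*KO higher (7.69%, where 5.85% of all genes did so), and those of 3 with *Gde2*KO lower (7.69%, against 8.32%). The 2 endocytosis genes, *Dnm1* and *Synj1*, gave -0.03 and 0.08.

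**Figure D2:**
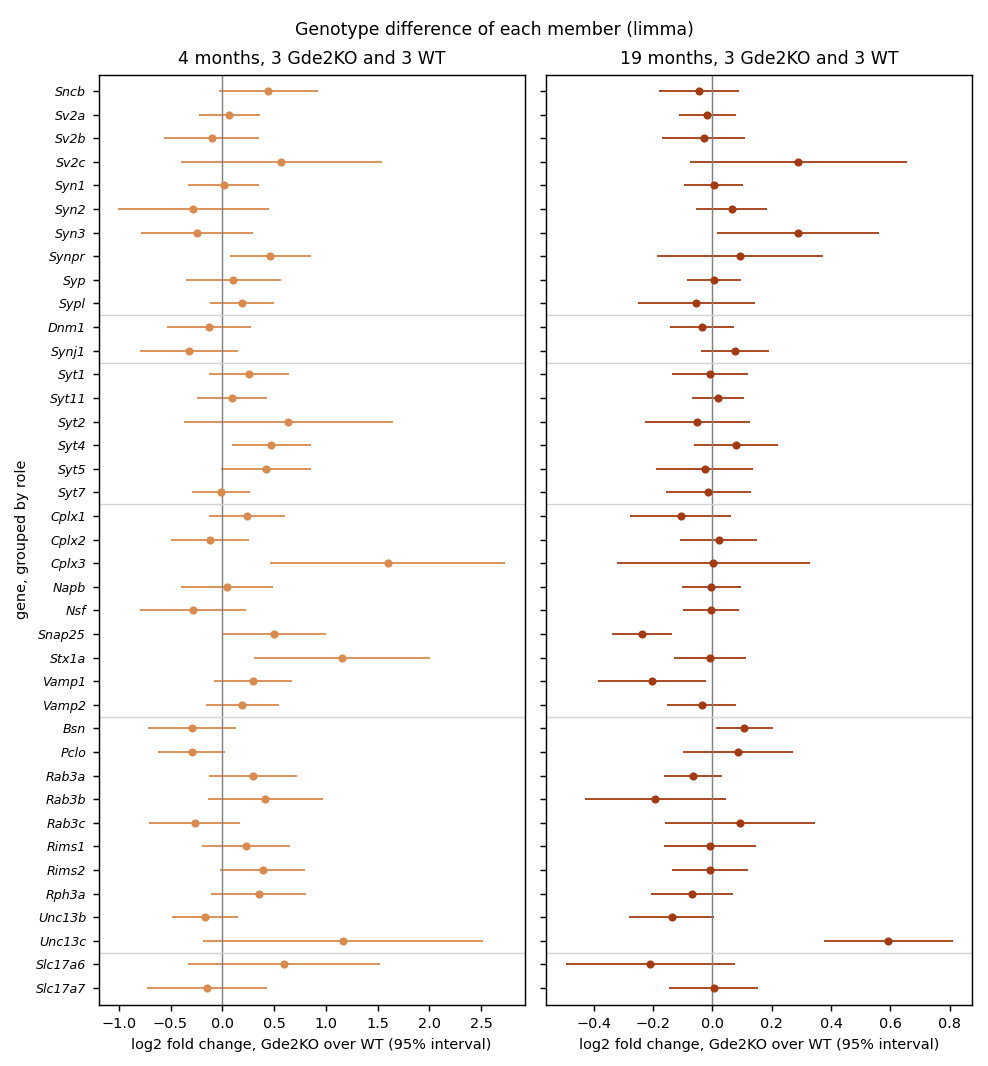
Log2 fold change of each gene, *Gde2*KO over WT, with its 95% interval (limma, 3 libraries per group), at 4 months on the left and 19 months on the right, on horizontal scales that differ. The intervals are wider at 4 months, and at 19 months those of *Snap25*, *Vamp1*, *Bsn*, *Syn3* and *Unc13c* leave zero, although 0 members were called at either age and the sign of *Bsn* turned with gene-level TPM.

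In young cortex the members were spread widely and 0 of 39 were called, where 0.126% of 19035 genes were. *Cplx3* and *Stx1a* had the largest differences toward higher values in *Gde2*KO with a p-value under 0.05, followed by *Syt4* and *Synpr*. Those 4 members (10.3%) compare with 10.6% of all genes. The median over the members was 0.19, but the median over all genes was 0.11 and moved to -0.01 under quantile normalization, where that of the members was 0.11. The interval lay inside ±0.5 for only 7 of 39 members.

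*Stx1a* (chr5:135023482-135051100, plus strand) read 2931, 3047 and 7481 normalized counts in WT and 9199.8, 6824 and 11710.5 in *Gde2*KO. WT libraries 1 and 2 were low and WT library 3 lay among the *Gde2*KO values, so that the groups overlapped. The log2 fold change was 1.15 (0.30 to 2.004), with an adjusted p of 0.463. *Cplx3* (chr9:57599992-57606281, minus strand), a complexin of deep-layer neurons and ribbon synapses, had the same shape, with 136, 198 and 517 in WT and 682, 498 and 1136 in *Gde2*KO (log2 1.60, interval 0.46 to 2.73, adjusted p = 0.463). Low values in both of these WT libraries were also seen for *Unc13c*, at 481, 902 and 3047 in WT and 2346, 3248 and 1966 in *Gde2*KO. The sensor of fast inhibitory terminals, *Syt2*, read 725, 1025 and 2559.8 in WT and 2185, 2398 and 1372 in *Gde2*KO, and *Sv2c*, a vesicle protein found mainly in basal ganglia, read 889, 759 and 2250.0 against 1822, 2332 and 1172.

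The other direction was taken by a further set of members. *Syn2*, a synapsin, read 27342 and 23118 in WT libraries 1 and 2 and 12575 in WT library 3, against 11973 to 19318 in *Gde2*KO. *Nsf*, the ATPase that disassembles SNARE complexes, read 36348 and 35376 against 22198 in WT library 3 and 21634 to 28007 in *Gde2*KO. *Synj1* read 16717 and 16432 against 10254, with 10857 to 12299 in *Gde2*KO. These were the WT libraries in which the hippocampal markers were high and the striatal ones low, and the part of region content in the members' values was not tested. Leaving both out puts 1 WT library against 3, in which only 240 of 19147 genes had an unadjusted p under 0.05, so the 0 members called there cannot be weighed. When WT library 3 was left out instead, 5 members were called, all higher in *Gde2*KO, namely *Cplx3*, *Stx1a*, *Sv2c*, *Syt2* and *Unc13c*, but calls also rose over all genes, to 8.03%.

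*Syt4* and *Synpr* differed less but did not overlap. *Syt4* read 5154, 6099 and 6362 in WT and 8168, 6764 and 9665 in *Gde2*KO (log2 0.47, interval 0.09 to 0.86, adjusted p = 0.463). *Synpr*, encoding the vesicle protein synaptoporin, read 4178, 3956 and 4607 in WT and 5478, 4933 and 7367 in *Gde2*KO (log2 0.46, interval 0.07 to 0.85, adjusted p = 0.463). Together they are 5.13% of the members, where 11.1% of all genes did not overlap with *Gde2*KO higher. *Bsn*, at 18714, 18218 and 19242 against 17619, 17412 and 11638, and *Pclo*, the sister scaffold piccolo, at 11284, 11884 and 10451 against 9387, 10126 and 7981, did not overlap with *Gde2*KO lower (5.13%, against 4.26% of all genes), but with gene-level TPM 0 members lay wholly below WT.

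The 4-month *Gde2*KO library 3 held the extreme value for many of these genes, and its values followed transcript length. Relative to the median of the 6 libraries of that age, genes under 1 kb stood at a median of 0.81 on the log2 scale in this library and genes over 6 kb at -0.12. In the other 5 libraries the same medians lay between -0.14 and 0.08 for genes under 1 kb. The 8 members with transcripts under 2.5 kb stood at a median of 0.56 there, among them *Snap25* at 110535 normalized counts, *Rab3a* at 20141 and *Syt5* at 6810.2, and the 7 members over 6 kb stood at -0.32, among them *Bsn* and *Pclo*. Mitochondrial genes held 20.1% of the TPM of this library and 11.8% to 15.3% of that of the other 11. Its part in the genotype differences was not tested beyond leaving it out, which left 0 members called. At 4 months the 8 short members had medians of -0.31, -0.17 and 0.01 in WT libraries 1, 2 and 3. In *Gde2*KO libraries 1, 2 and 3 these were 0.31, -0.06 and 0.56. The 7 long members stood at 0.06, 0.02 and 0.10 in WT and 0.13, -0.02 and -0.32 in *Gde2*KO. At 19 months the medians of the 8 short members were 0.05, 0.06 and 0.01 in WT libraries A, B and C. In *Gde2*KO they were -0.07, -0.004 and -0.02. Those of the 7 long members were -0.10, -0.07 and -0.01 in WT and 0.19, -0.02 and 0.05 in *Gde2*KO. The part of transcript length in the 19-month differences was not tested.

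**Figure D3:**
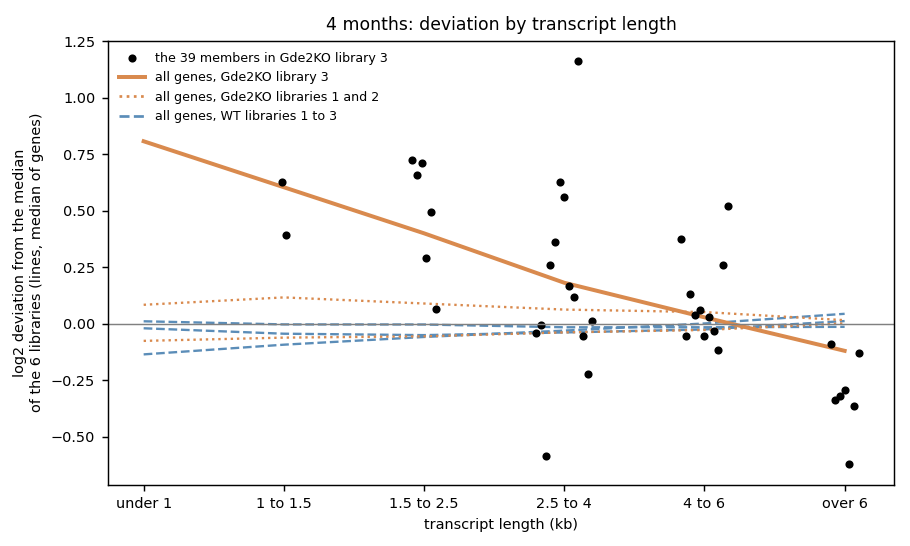
Median log2 deviation of all genes from the median of the 6 libraries of 4 months (vertical axis) by transcript length in kb (horizontal axis), 1 line per library, with the 39 members in *Gde2*KO library 3 as points. The line of that library falls from 0.81 to -0.12, whereas the other lines stay near zero.

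Differences between the ages in the genotype effect were asked of a single model over the 12 libraries, and 0 of 39 members were called at an adjusted p under 0.1, where 0.0480% of 18731 genes were. At an unadjusted p under 0.05 there were 6 members (15.4%), as against 12.9% of all genes. *Snap25* came first: its genotype effect, in log2 units, was -0.74 at 19 months relative to 4 months (-1.22 to -0.26), with an adjusted p of 0.368. *Stx1a* (-1.16), *Cplx3* (-1.59), *Vamp1* (-0.50) and *Syt4* (-0.39) were also negative, all with adjusted p-values of 0.368 to 0.387. *Pclo* was positive at 0.38 but turned to -0.05 with gene-level TPM. The median of all genes in this contrast was -0.15 and moved to -0.0010 under quantile normalization. The 4-month side of the contrast rests on the WT libraries described above and on *Gde2*KO library 3, whose values followed transcript length. *Snap25* read 110535 normalized counts in that library and 81678 and 69566 in *Gde2*KO libraries 1 and 2. Leaving out WT library 3 of 4 months brought the count to 13, in a fit that called 2029 of 18522 genes in place of 9.

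**Figure D4:**
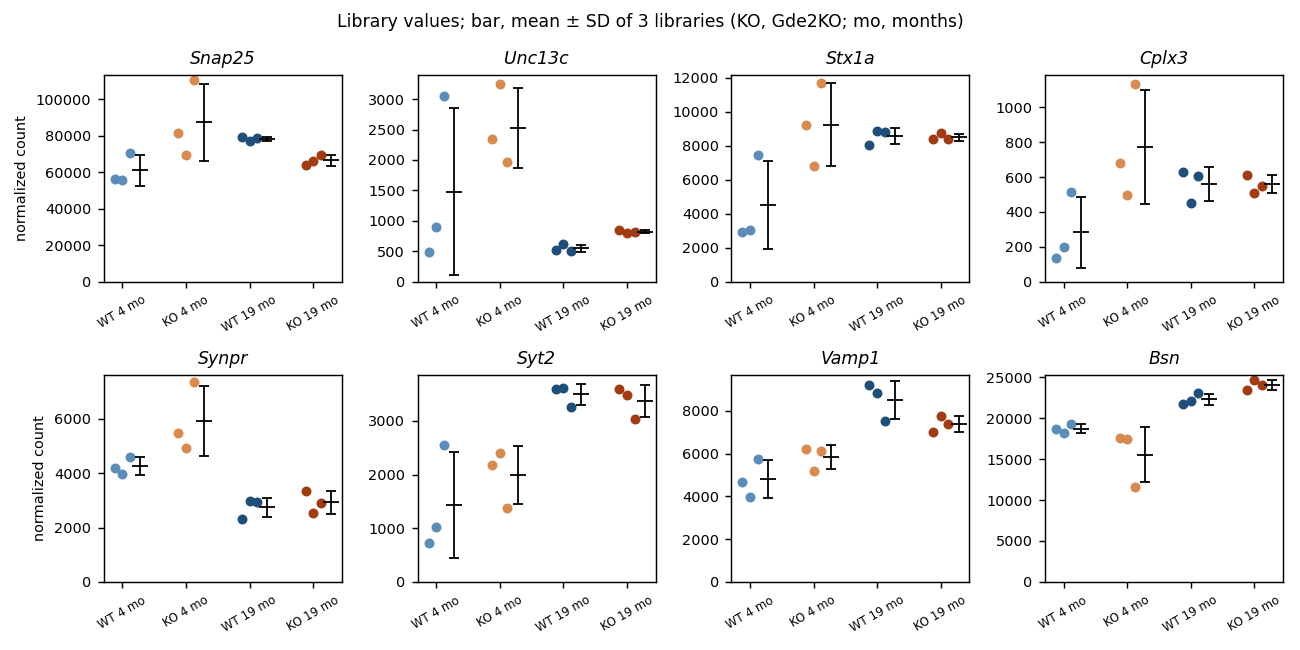
Normalized counts of 8 genes (vertical axes, starting at 0) in the 3 libraries of each group (points), with the mean ± SD as bars. At 19 months the points of *Snap25* are lower and those of *Unc13c* higher in *Gde2*KO without overlap, and at 4 months the WT points of *Stx1a*, *Cplx3*, *Syt2* and *Unc13c* are split between 2 low libraries and another within or near the *Gde2*KO range.

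Between the ages, several members differed more than between the genotypes. In WT, 6 of 39 were called (15.4%, where 13.7% of all genes were), 5 of them higher at 19 months (12.8%, against 6.29%) and 1 lower (2.56%, against 7.40%). *Vamp1* rose from 4799.9 ± 887.0 to 8517.7 ± 887.1 normalized counts (SD, n = 3 each), a log2 change of 0.84 (0.55 to 1.13, adjusted p = 0.00243). *Sncb* rose by 0.82 (0.47 to 1.17, adjusted p = 0.006845), from 7504, 9929 and 11866 to 17564, 17314 and 15886. *Syt2* rose by 1.49 (adjusted p = 0.0149), *Cplx3* by 1.21 (0.0581) and *Stx1a* by 1.08 (0.0266). *Rab3c*, a close relative of *Rab3a*, fell by 0.81 on the log2 scale (adjusted p = 0.007515), from 16675, 18047 and 12686 to 8545, 8448 and 9777.

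Without the young WT libraries 1 and 2, 1 library is left in that group, the spread is taken from the other groups, and calls fell to 2.77% of all genes. In that fit 1 member was called, *Unc13c*, lower at 19 months. *Vamp1* kept its sign in all 25 alternatives, from 0.56 to 1.05, and *Sncb* in the range 0.51 to 0.97. By contrast, the lowest values of *Cplx3* and *Stx1a* were 0.10 and 0.19, and *Rims1* and *Rims2*, which encode RIM scaffolds of the active zone, turned from higher to -0.07 and -0.04 without these libraries. With the adjusted p alone, 14 members passed in WT (35.9%, against 28.2% of all genes).

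In *Gde2*KO, 2 of 39 members were called between the ages (5.13%, where 11.9% of all genes were), and both fell. *Synpr* fell by 1.01 on the log2 scale (interval -1.35 to -0.67, adjusted p = 0.00319), from 5478, 4933 and 7367 to 3337, 2517 and 2917, with no overlap. *Unc13c* fell by 1.59 (-2.62 to -0.55, adjusted p = 0.0351), from 2346, 3248 and 1966 to 846, 801 and 815. Both were called under all 24 alternatives. Lower calls made up 9.32% of all genes and higher calls 2.55%, of which 0 were members, and the median of all genes was -0.21, moving to -0.01 under quantile normalization, while that of the members turned from -0.06 to 0.11. In WT, *Synpr* was also lower at 19 months in every library (log2 -0.64, adjusted p = 0.0175), below the minimum fold change. With the adjusted p alone, 12 members passed in *Gde2*KO (against 32.3% of all genes), among them *Bsn* at 0.65 and *Sypl*, a relative of synaptophysin also made outside neurons, at -0.52. The striatal marker sum was 1271.7 to 3274.8 in *Gde2*KO at 4 months and 399.0 to 878.9 at 19 months, and its part in these changes was not tested.

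Transcript usage asks whether a gene's RNA is divided differently among its annotated transcripts. At 4 months 0 of 34 members with at least a pair of testable transcripts were called (limma's diffSplice, adjusted p under 0.1 and a shift above 10 percentage points in the share of TPM), where 0.997% of 12235 genes were. Of the members 5 (14.7%) had an unadjusted p under 0.05, as did 12.6% of all genes. At 19 months 0 of 35 were called, where 0.171% of 12253 genes were, and 4 (11.4%) had an unadjusted p under 0.05, against 5.10%.

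*Synpr* (chr14:13284780-13616340, plus strand) showed the widest shift. Its main transcripts start at separate sites, Synpr-201 at the gene's first base and Synpr-202 downstream of it by 169249 bases. Synpr-201 made up 85.8% and 88.6% of the gene's TPM in 4-month WT libraries 1 and 2, but 18.4% in WT library 3 and 22.4%, 19.6% and 26.6% in *Gde2*KO. Synpr-202 made up 3.7% and 3.8% in the first libraries, 75.1% in WT library 3 and 68.6% to 73.9% in *Gde2*KO. The gene's total at 4 months was lowest in WT libraries 1 and 2, at 4178 and 3956 normalized counts, against 4607 in WT library 3. It was 4933 to 7367 in *Gde2*KO. At 19 months Synpr-201 held 47.1% to 58.7% in WT and 43.6% to 52.4% in *Gde2*KO. Adjusted p-values were 0.355 at 4 months and 0.333 at 19 months. The 30 bases before each start, from RefSeq on GRCm38.p6, are shown because they precede the starts whose shares differed. The RefSeq site used for Synpr-202 lies 71 bases before the annotated start of that transcript.
Synpr-201, chr14:13284750-13284779, plus strand: ccctagcccactctgccccgcccacccctc
Synpr-202, chr14:13453928-13453957, plus strand: gagctggtgccttagctcatgatgcagcgt

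The promoters differ in composition as well. The 250 bases before the start of Synpr-201 were 64% G or C and held 13 CG dinucleotides, as many as or more than which are found in 31.5% of 32851 RefSeq promoters. Those before Synpr-202 were 44.4% G or C with 1 CG dinucleotide, a count not exceeded in 18.8% of promoters. In RefSeq's table, 32 of the 39 members had a promoter.

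*Snap25* is made in a pair of forms that carry alternative versions of exon 5, each of 118 bases and identical at 73.7% of positions, with 31 differences. The annotated forms differ at the 3′ end as well. Snap25-201 is 2116 bases long, and Snap25-202 is 1014 bases long and ends 1077 bases before the gene's end. Their shares therefore do not measure the choice of exon alone. Snap25-201 made up 84.8% to 92.9% of the gene's TPM over the 12 libraries and Snap25-202 made up 7.0% to 15.0%. At 19 months Snap25-201 held 92.9%, 91.3% and 92.7% in WT and 87.4%, 91.0% and 90.9% in *Gde2*KO. The groups did not overlap, but the usage test gave an adjusted p of 0.979 and the value farthest from WT was that of library A, the one of lowest depth. The 30 coding bases of GENCODE vM21 in which the exons differ most are given with the 11 differing positions in capitals.
Snap25-201, chr2:136770129-136770158, plus strand: CGgaCCtaggAaaatTctgCggGctttGTG
Snap25-202, chr2:136769815-136769844, plus strand: AAgaTTtaggCaaatGctgTggCctttTCA

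A further pattern was shared by Bsn-202, Pclo-204, Synj1-208 and Syt11-202, annotated transcripts that lack the 5′ exons of the longest form and were singled out after their values were seen. At 4 months Bsn-202 held 69.0% and 73.9% of *Bsn* in *Gde2*KO libraries 1 and 3 and 39.5% to 45.8% in the other 4 libraries. Pclo-204 held 71.0% and 74.1% in the same libraries against 40.2% to 47.1%, and Synj1-208 held 26.1% and 43.0% against 1.5% to 7.9%. Syt11-202 held 6.9% and 19.9% against 1.3% to 2.6%. At 19 months the shares were higher in WT libraries A, B and C than in *Gde2*KO for Bsn-202 (69.5%, 62.7% and 55.5% against 43.6%, 47.2% and 52.6%), Pclo-204 (72.0%, 73.4% and 61.9% against 46.997%, 54.4% and 59.2%) and Synj1-208 (34.3%, 24.95% and 21.6% against 3.4%, 13.2% and 17.4%). Syt11-202 held 21.8%, 6.0% and 4.2% in WT and 3.1%, 2.6% and 3.1% in *Gde2*KO at 19 months. The direction by genotype was thus opposite at the 2 ages, and 0 of these 4 genes were called at either. When *Gde2*KO library 2 was left out at 4 months, *Bsn*, *Synj1* and *Syt11* were called, in a fit where calls over all genes rose to 5.38%. Other transcripts that start well inside their gene were mixed at 4 months. Rims1-208 held 14.8% and 11.8% in *Gde2*KO libraries 1 and 3 and 15.8% to 18.1% in the other 4 libraries. Rims2-204 held 46.3% and 49.6% there, against 34.9% to 40.0%.

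**Figure D5:**
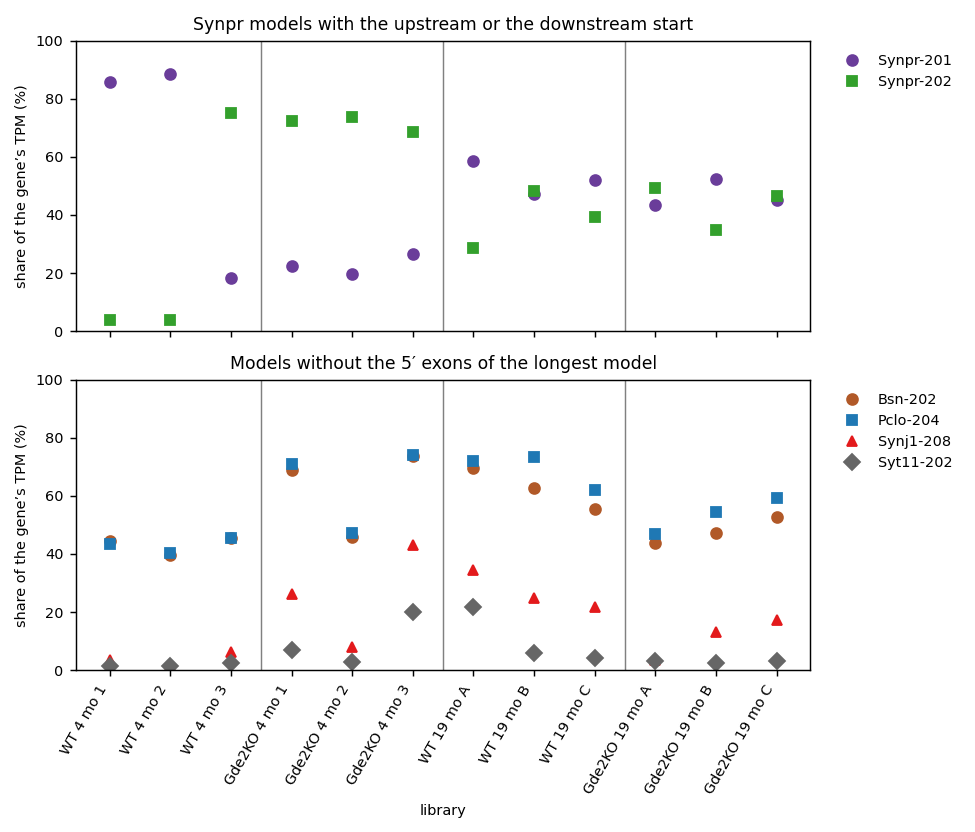
Share of the gene's TPM in percent (vertical axis) in each of the 12 libraries (horizontal axis), above for the *Synpr* transcripts with the upstream and the downstream start, below for 4 transcripts that lack the 5′ exons of the longest form. Synpr-201 is above 80% only in 4-month WT libraries 1 and 2, and Bsn-202, Pclo-204 and Synj1-208 are high and low in much the same libraries.

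Shifts above 10 percentage points that were not called also included *Syt2* (15.1 points, adjusted p = 0.898), *Syp* (11.8, 0.605) and *Syn2* (10.2, 0.863) at 4 months and *Syn2* (12.3, 0.983) at 19 months. The smallest p at 19 months belonged to *Sv2b*, a vesicle glycoprotein, whose largest shift in share was 0.553 percentage points (adjusted p = 0.266). *Rab3b* followed *Synpr*, with 3.24 points (adjusted p = 0.608), and *Syt1* at 4 months shifted by 2.12 points (adjusted p = 0.285). *Cplx3* shifted by 14.7 points at 19 months (adjusted p = 0.617), where *Gde2*KO library A, the one of lowest depth, had 9.2% of Cplx3-203 and the other 5 libraries had 30.9% to 40.1%.

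A list of 97 other genes of the vesicle cycle was examined in the same way. Of 96 tested at 4 months and 97 at 19 months, 0 were called between genotypes at either age, and 15 and 10 had an unadjusted p under 0.05, where 10.6% and 6.91% of all genes did. At 4 months the smallest p-values were those of *Doc2a*, a calcium sensor for spontaneous release, at a log2 fold change of 0.90, of *Ppfia4*, a liprin, at -0.51 and of *Sh3gl3*, an endophilin, at 0.55, each with an adjusted p of 0.463. At 19 months they were *Doc2b* at 0.68, *Apba1* at 0.14 and *Bcr* at 0.22, with adjusted p-values of 0.620 to 0.668. The medians were 0.08 and 0.00. Between the ages, 5 of the 97 rose and 9 fell in WT, and 1 rose and 7 fell in *Gde2*KO. Over all genes 6.29% rose and 7.40% fell in WT, and 2.55% rose and 9.32% fell in *Gde2*KO.

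Of the other vesicle genes, *Cplx4*, a complexin best known from retina, was the one that rose in both, from 0 to 2.1 normalized counts in the 4-month libraries to 37.3 to 65.2 at 19 months, which is a few reads per library at the lowest depth. *Doc2b* and *Syt10* fell in both genotypes.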

How the data were processed

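The authors pseudoaligned reads of polyA RNA libraries to GRCm38 transcripts with kallisto and normalized them in sleuth. They deposited, for each of 118489 transcripts, signal values that are estimated counts divided by a size factor (normalized counts) and signal values that are TPM scaled in the same way. Gene values are sums over transcripts, joined by the deposited identifiers. 1673 transcripts had no gene. Genes with 5 normalized counts in at least 47% of libraries were tested with limma 3.58.1 in R 4.3.3 on log2 values with a pseudocount of 0.5, separately at each age, and over all 12 libraries for the interaction and the ages. p-values were adjusted over all genes. Statistics were tested on simulated data. Because reads were not whole, no count model was used. Fold changes of low genes are understated by the pseudocount, and the 2 libraries of low depth resolve 1 read as several normalized counts. Libraries at 19 months are called A, B and C, since the deposited columns give them no number. The share of identical values was 0% in all pairs of libraries.

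The rule for the members uses no measured value, but members and lists were chosen with earlier results of these data known. The rule for named genes gave each library's value for members called, for the 3 of smallest p in each comparison and for those of widest spread. Each library is taken as a separate animal. Results were recomputed with other scalings, pseudocounts, filters, thresholds and variance models, with each library left out, and with a block on replicate number. Positions and transcripts are from GENCODE vM21 and promoters from RefSeq (GRCm38.p6). Marker lists other than the ones named above (interneurons, glia, endothelium, choroid plexus and thalamus) were summed in TPM and are given with the other observations.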

Additional observations from a re-analysis of the deposited data

Results flagged for a closer look

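Among the 39 members, *Bsn* was the one whose libraries all moved one way at 4 months and all the other way at 19 months. The log2 fold change, *Gde2*KO minus WT, was -0.29 at 4 months and 0.11 at 19 months, and the difference of 0.40 had an adjusted p of 0.392 in limma's interaction test, so it did not pass. With gene-level TPM the 19-month value was -0.05, and the genotypes overlapped at 4 months. The 4-month TPM were 81.5, 76.5 and 85.2 in WT and 89.2, 76.4 and 59.8 in *Gde2*KO. Groups of 3 libraries were not searched for single outlying values.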

How the results depend on the processing

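Counts of called members stayed at 0 at 19 months under all 19-month alternatives. At 4 months array quality weights gave 5 (15.4% of all genes were called there). Leaving out single libraries gave 0 to 5, with calls for 0.0265% to 8.03% of all genes. For the interaction array quality weights gave 28 (46.7% of all genes). Leaving out single libraries gave 0 to 13 (0.0323% to 11% of all genes), the highest without 4-month WT library 3. Between ages in WT the adjusted p alone gave 14 (28.2% of all genes), and single omissions gave 2 to 8 (8.23% to 16.7%). Omission of 4-month WT libraries 1 and 2 leaves 1 library in that group. It was chosen after seeing the data, like all alternatives that omit libraries standing apart for overlap, interaction or usage. In *Gde2*KO median-of-ratios scaling gave 4 (8.91% of all genes), quantile normalization 5 (9.7%), array weights 4 (17.8%) and the adjusted p alone 12 (32.3%). The 6 libraries of the genotype alone gave 4 (9.97%). Single omissions gave 2 to 6 (5.91% to 15.4%), the highest without 4-month *Gde2*KO library 2. Array weights stopped short of convergence in some fits. For usage, single omissions gave 0 to 3 at 4 months (0.679% to 5.38% of all genes). At 19 months they gave 0 to 1 (0.18% to 0.481%), the 1 being *Cplx3* without WT library C. Omission of both 4-month WT libraries 1 and 2 leaves 1 library in that group for usage as well. The members' median at 4 months was 0.10 under median-of-ratios scaling and 0.13 to 0.29 with a library left out. Members not overlapping numbered 11 with 1 WT library left after omission of WT libraries 1 and 2, where 42.4% of all genes did so, 22 without WT library 3 (40.4%), 18 without *Gde2*KO library 2 (44.6%), 16 without WT library C at 19 months (28.1%), and 14 at 19 months without both libraries of low depth, where 36.4% did. Signs turned for *Bsn* at 19 months (-0.053) and for *Pclo* in the interaction (-0.051) with gene-level TPM, and for *Rims2* (-0.044) and *Rims1* (-0.068) between ages in WT without WT libraries 1 and 2. The cause was not tested for any of these. Of 1436 recomputed values, 1187 for single genes kept their direction and side of the threshold. Of the other single-gene values 54 gained a call, 16 lost it and 4 changed sign. Among counts and medians, 152 stayed equal or close to the main value and 23 moved. A median was close when it moved by no more than the SD between libraries of the members' median. That SD was 0.090 at 4 months and 0.027 at 19 months.

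With replicate number as a block at 4 months, 0 members were called, 0 for usage, and the median stayed at 0.19. Same-numbered libraries correlated at 0.06, 0.01 and -0.05 in their deviations from the group means, so the numbers did not pair them. No paired analysis was possible at 19 months because the columns carry no replicate number. At 3707928 and 6734475 reads, the 19-month libraries A limit low genes such as *Unc13c* and *Cplx3*.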

Other observations

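Markers of other cells were summed over the libraries as TPM. Interneuron markers (14 genes) ranged from 1384.5 to 2834.9, the highest in 4-month *Gde2*KO library 3. The TPM of that library summed to 1472300, against 887748 to 1103970 in the others, and the marker sums were not rescaled. Its interneuron and microglial maxima therefore cannot be read as larger shares of the RNA. Thalamic markers (12 genes) ranged from 70.7 to 119.7, the highest in 4-month WT library 2. Oligodendrocyte markers (10 genes) read 2282.2 to 3025.1 in WT and 2732.8 to 3668.5 in *Gde2*KO at 19 months. Microglial markers read 315.7 to 631.0 over all libraries, astrocyte markers 1581.7 to 2026.0, endothelial markers 165.3 to 348.7 and choroid plexus markers 8.6 to 42.4. At 4 months *Prox1*, a marker of dentate granule cells, read 3548.0 and 3014.6 normalized counts in WT libraries 1 and 2 and 568.1 to 716.2 in the other 4.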
